A study of Rattus norvegicus with 18 samples.

Results

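DNA replication and S-phase genes were followed in nucleus pulposus cells of rats, which fill the soft centre of the discs between vertebrae, kept in culture. The set held 45 genes listed by symbol, and 44 of them were found by gene name among the 33898 genes of the count table. E2f1 was not analysed here. All 44 were among the 14184 genes with enough counts to be tested. Cells of Sprague Dawley rats aged 8 weeks were grown in serum-containing medium and received PDS, Phen-DC3 or Braco-19 for 24 hours. These compounds are ligands of the G-quadruplex, a fold that strands rich in guanine can take. Each compound group and each of the 3 control groups had 3 libraries, 18 libraries in 6 groups. The control groups are written PDS_control, Phen_control and control. The titles of the last name no compound, and it was set against Braco-19 because the other 2 control groups are named for their compounds. No dose is given in the labels. The labels do not say whether the 3 libraries of a group came from separate cultures or animals, so p-values measure only the spread between these libraries, which may be technical.

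Before a cell copies its genome, the origin recognition complex, Cdc6 and Cdt1 load the Mcm2 to Mcm7 ring on DNA, a step called licensing. At the start of S phase, Cdc45 and the GINS complex (Gins1 to Gins4) turn that ring into an active helicase. DNA polymerases alpha, delta and epsilon then copy the strands, and the sliding clamp PCNA holds delta on DNA. RPA coats exposed single strands, and ribonucleotide reductase, thymidylate synthase and related enzymes supply nucleotides. Transcription of many of these genes is controlled by E2F factors near the border of G1 and S phase. G-quadruplexes are a known obstacle to replication forks.

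The E2F link can be read in the promoter sequences. RefSeq promoters (GRCr8 build, 250 bases before to 50 bases after the gene start) were found for 36 of the 44 genes. An E2F-type spelling (TTTGGCGC, TTTCCCGC, TTTGCCGC or TTTCGCGC, on either strand) was present in 17 of the 36 promoters, 47.2%, against 4.18% of the promoters of 9640 tested genes and 2.37% of those of all 27457 symbols in the table. The 5 MCM helicase genes with a promoter entry all held at least 1. Their motifs are shown because these genes form 1 complex and can be compared directly. Each is a window of 30 bases around the first run of E2F-type letters, 5′ to 3′ on the gene's strand, with these letters in capitals. Mcm3, Mcm5 and Mcm7 held another run outside the window shown.
Mcm2, chr4:122918088-122918117, minus strand: tgacccggtTTTCGCGCGAAAacccgtggc
Mcm3, chr9:30733734-30733763, minus strand: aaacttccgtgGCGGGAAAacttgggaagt
Mcm5, chr19:13488591-13488620, plus strand: gctcagaagTTTCGCGCCAAAacgtcccgc
Mcm6, chr13:42404471-42404500, minus strand: gcgtctgctTTTGGCGCGAAAttagcgtgt
Mcm7, chr12:22163393-22163422, minus strand: aatttcgaaccGCGGGAAAtcgggtgccca
In Mcm2, Mcm5 and Mcm6 the letters of a spelling on each strand overlap and form a run of 12 bases.

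Of the 9 genes called higher with PDS, 6 had a promoter entry and 5 of these held an E2F-type spelling, while that of Asf1b held none. Whole promoters are given for 4 of the 5, Cdt1, Gins3, Tyms and Rpa2, chosen because they hold the spelling, and for Pole, which had the widest range of levels over the 6 groups. Capitals again mark the E2F-type letters.
Cdt1, chr19:67528999-67529298, plus strand: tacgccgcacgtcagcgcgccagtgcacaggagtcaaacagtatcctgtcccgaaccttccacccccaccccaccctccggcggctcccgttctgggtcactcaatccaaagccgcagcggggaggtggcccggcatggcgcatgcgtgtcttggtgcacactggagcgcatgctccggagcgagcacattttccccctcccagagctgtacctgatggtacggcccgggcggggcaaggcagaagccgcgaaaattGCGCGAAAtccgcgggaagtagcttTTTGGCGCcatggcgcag
Gins3, chr19:9434630-9434929, minus strand: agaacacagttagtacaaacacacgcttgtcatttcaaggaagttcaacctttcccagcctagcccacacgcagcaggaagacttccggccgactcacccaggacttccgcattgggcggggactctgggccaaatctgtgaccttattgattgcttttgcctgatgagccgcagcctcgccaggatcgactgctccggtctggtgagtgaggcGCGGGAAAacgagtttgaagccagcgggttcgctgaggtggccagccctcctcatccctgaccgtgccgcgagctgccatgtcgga
Tyms, chr9:120776034-120776333, minus strand: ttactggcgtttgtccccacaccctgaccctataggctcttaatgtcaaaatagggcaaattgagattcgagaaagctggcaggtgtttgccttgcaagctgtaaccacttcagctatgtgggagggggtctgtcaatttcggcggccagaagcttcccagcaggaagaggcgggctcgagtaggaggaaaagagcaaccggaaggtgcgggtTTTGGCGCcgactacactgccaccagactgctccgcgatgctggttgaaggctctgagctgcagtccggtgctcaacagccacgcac
Rpa2, chr5:150260522-150260821, plus strand: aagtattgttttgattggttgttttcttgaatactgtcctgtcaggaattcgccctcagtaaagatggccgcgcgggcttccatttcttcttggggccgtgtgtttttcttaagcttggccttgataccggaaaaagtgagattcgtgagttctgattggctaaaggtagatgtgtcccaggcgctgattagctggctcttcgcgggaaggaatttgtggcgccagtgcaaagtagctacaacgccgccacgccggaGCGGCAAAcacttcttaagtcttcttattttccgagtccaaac
Pole, chr12:52053613-52053912, minus strand: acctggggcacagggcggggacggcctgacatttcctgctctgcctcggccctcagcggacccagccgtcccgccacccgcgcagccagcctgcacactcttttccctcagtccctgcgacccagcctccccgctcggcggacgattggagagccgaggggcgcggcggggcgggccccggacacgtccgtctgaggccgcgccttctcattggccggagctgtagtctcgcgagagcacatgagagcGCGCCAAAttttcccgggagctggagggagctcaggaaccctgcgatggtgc
A spelling that could fold as a quadruplex (4 runs of at least 3 guanines with loops of 1 to 7 bases, on either strand) was found in 6 of the 36 promoters, 16.7%, namely those of Ccne1, Mcm2, Orc6, Pole, Pole2 and Rpa1. It was present in 26.3% of the promoters of tested genes and in 18.1% of all. Of the 6, only Mcm2, Pole and Pole2 also held an E2F-type spelling, and in none of them did the quadruplex spelling overlap it. A match of letters is a description of the window and not a bound site.

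Library totals were 15715121 to 18369443 counts, of which 35398 to 59777 fell on the 44 genes. The lowest count of any of them in a library was 59, for E2f8. Levels are CPM, counts scaled to a common library size, here with TMM factors. The nucleus pulposus label was read against its markers: Pax1 averaged 76.1 to 111 CPM per group, Foxf1 35.1 to 44.2 CPM and Col2a1, the main cartilage collagen, 9.80 to 20.3 CPM. Acan, the large cartilage proteoglycan, averaged only 0.140 to 2.85 CPM, and Tbxt, Krt19 and Shh, notochordal markers, had no counts in any library. Per library, the 17 nucleus pulposus and chondrocyte markers with a row summed to 247 to 338 CPM, 7 fibroblast and annulus markers to 2688 to 7579 CPM, and 6 smooth muscle and pericyte markers to 388 to 517 CPM. Those of macrophages and leukocytes summed to 0.997 to 5.60 CPM. The Braco-19 and control libraries stood apart from the other 12 libraries: genes longer than 5000 bases took 24.2% ± 0.95 of the counts with Braco-19 and 25.3% ± 0.18 in control (SD, n = 3), against group means of 7.99% to 9.99% elsewhere.

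Per kilobase of gene length, averaged over the 18 libraries, 4 of the 5 nucleotide enzymes and the clamp were the most abundant of the set. Rrm2, the small subunit of ribonucleotide reductase, averaged 154 CPM per kilobase, Pcna 127, Dut, the dUTPase, 118, Tk1, thymidine kinase, 100.3 and Rrm1, the large reductase subunit, 95.6. Mcm7 came next at 44.1 CPM per kilobase, Tyms, the other nucleotide enzyme, was 20th at 22.8, and Cdc45 was lowest at 2.91.

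The summed level of the 44 genes was 2958 ± 4.30 CPM with PDS, against 2649 ± 42.7 in PDS_control. It was 2397 ± 102 CPM with Phen-DC3, against 2238 ± 61.4 in Phen_control, and 3120 ± 86.3 CPM with Braco-19, against 3318 ± 110.1 in control (SD, n = 3 libraries each). The sums of PDS and PDS_control libraries did not overlap, nor did those of Phen-DC3 and Phen_control, while those of Braco-19 and control did. In bulk RNA, a change in the number of cells of a type, here cells in S phase, and a change in RNA per cell cannot be told apart.

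**Figure D1:**
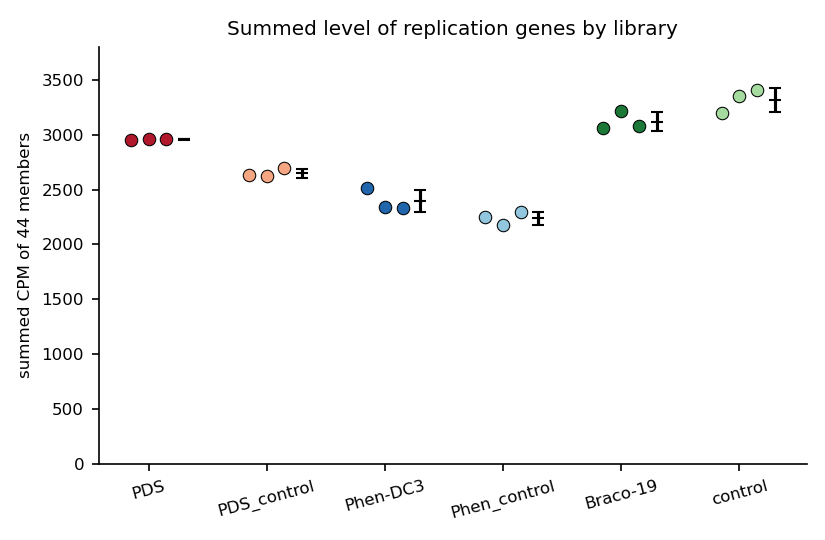
Summed CPM of the 44 replication genes in each library (points) with the mean and SD of each group beside them; the vertical axis starts at 0. PDS libraries lie between 2953 and 2962 CPM, above the PDS_control libraries at 2619 to 2698 CPM, and the Phen_control libraries are lowest at 2172 to 2294 CPM.

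The first comparison asked what PDS did to these genes. Of the 44, 9 rose and 0 fell (edgeR quasi-likelihood test, Benjamini-Hochberg adjusted p under 0.05 over all 14184 genes), where 5.13% of all tested genes rose and 2.96% fell. At an unadjusted p under 0.05, 19 were higher and 0 lower, where 13.3% and 9.58% of all tested genes were. DESeq2 called 11 higher and 0 lower, where 6.34% and 4.63% of the genes it tested were. The log2 fold change was positive for 41 genes, with a median of 0.20 over the 44 and 0.02 over all tested genes. Pold1, Tk1 and Chaf1a had negative values, between -0.12 and -0.06. All 3 PDS libraries lay above all 3 PDS_control libraries for 25 genes and below for 1, Pold1, where 17.7% and 15.6% of all tested genes did so.

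Among licensing genes, 3 of 10 rose. Orc1, the largest subunit of the origin recognition complex, had 8.83, 7.87 and 8.28 CPM in PDS libraries, against 6.35, 5.54 and 5.39 CPM in PDS_control libraries, and rose 1.45-fold (log2 0.53 ± 0.15 SE, adjusted p = 0.0321). Cdt1, the loader of the MCM ring, had 19.6, 24.6 and 21.7 CPM with PDS, against 16.0, 17.6 and 17.4 CPM in PDS_control (log2 0.37 ± 0.10, adjusted p = 0.0313). Mcm4 had 90.9, 96.5 and 103 CPM with PDS, against 78.6, 66.2 and 77.9 CPM in PDS_control, and rose by 0.39 ± 0.09 on the log2 scale (adjusted p = 0.0085). In all 3 genes every PDS library was above every PDS_control library. The other ring subunits had log2 fold changes of 0.04 (Mcm6) to 0.19 (Mcm7) and were not called. Orc6 had a log2 fold change of 0.42 ± 0.13 and just missed the threshold (adjusted p = 0.0528).

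The ring subunits act together in 1 complex, so their levels per kilobase can be set side by side. In PDS_control, Mcm4 averaged 22.2 ± 2.09 CPM per kilobase, and the other 5 subunits had means of 28.4 (Mcm2) to 44.0 (Mcm6). With PDS, Mcm4 averaged 29.0 ± 1.86, next to Mcm2 at 29.5 ± 1.07 (SD, n = 3), which do not differ beyond their spread. Mcm4 was also the lowest with Phen-DC3, at 19.4 ± 1.90 CPM per kilobase, and in Phen_control, at 22.2 ± 2.09, close there to Mcm2 and Mcm3 at 22.4 ± 2.36 and 22.7 ± 1.90. Among the Braco-19 and control libraries the order differed: Mcm4 was the third highest subunit with Braco-19, at 38.7 ± 1.94, and in control, at 46.4 ± 1.64, and Mcm7 was highest in both, at 60.7 ± 1.21 and 57.6 ± 1.79. With Braco-19, Mcm4 did not differ beyond its spread from Mcm5, at 37.8 ± 3.05, and Mcm3, at 36.7 ± 1.94. In control, Mcm4 did not differ in this way from Mcm6, at 47.3 ± 1.54.

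**Figure D2:**
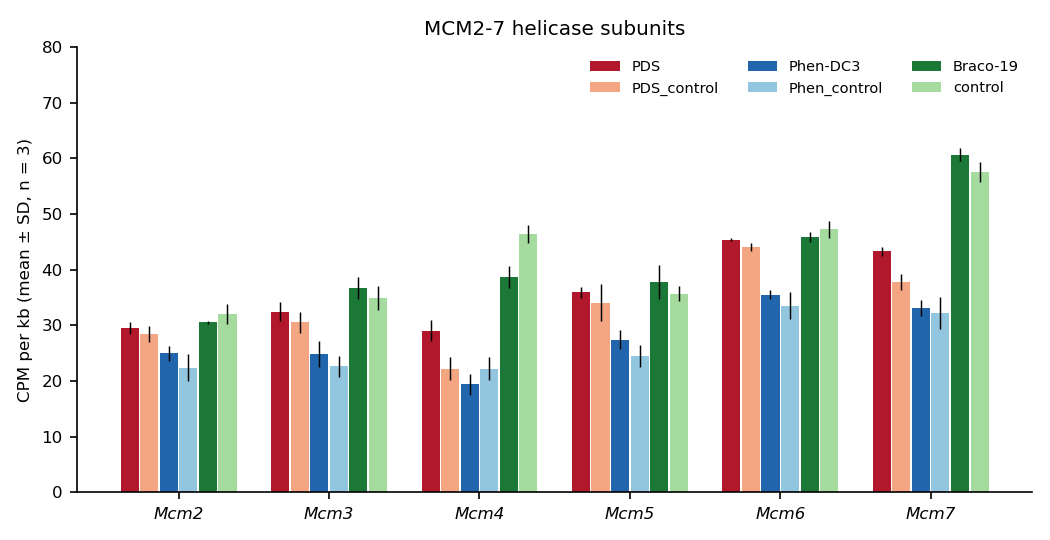
Level of the helicase subunits Mcm2 to Mcm7 in CPM per kilobase of gene length, as bars for the mean of 3 libraries in each group with SD. Mcm4 reaches 29.0 with PDS and 22.2 in PDS_control, and 38.7 with Braco-19 and 46.4 in control.

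Of 6 helicase activation genes, 2 rose, both GINS subunits. Gins3 had 9.66, 11.8 and 11.6 CPM in PDS libraries, against 8.95, 6.54 and 5.87 CPM in PDS_control libraries. It rose 1.55-fold (log2 0.63 ± 0.15, adjusted p = 0.0125), the largest fold change among the 44 with PDS. Gins4 had 30.4, 28.0 and 26.1 CPM with PDS, against 19.6, 20.3 and 25.6 CPM in PDS_control (log2 0.37 ± 0.10, adjusted p = 0.0277). In both genes the groups did not overlap, but the highest PDS_control library came close to the lowest PDS library. Their partners in the complex were not called, Gins1 with a log2 fold change of 0.02 ± 0.13 and Gins2 with 0.14.

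Rpa2, a subunit of the single-strand binding complex RPA, had the smallest adjusted p of the 44. Its level was 72.4, 67.8 and 71.3 CPM in PDS libraries, against 49.6, 55.7 and 56.3 CPM in PDS_control libraries. It rose 1.31-fold (log2 0.39 ± 0.07, adjusted p = 0.0015), and its PDS level was above that of all 15 other libraries. Rpa1, the large RPA subunit, had 150, 151 and 159 CPM with PDS, against 140, 140 and 136 CPM in PDS_control; the groups did not overlap, but the log2 fold change of 0.14 was not called (adjusted p = 0.236).

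Among 5 nucleotide supply genes 1 rose. Tyms, thymidylate synthase, had 36.3, 37.8 and 39.9 CPM with PDS, against 29.6, 27.2 and 30.2 CPM in PDS_control (log2 0.39 ± 0.09, adjusted p = 0.0099). Rrm1 and Rrm2 had log2 fold changes of 0.20 and 0.21 and did not overlap with their controls, but were not called. Of 6 genes of histone supply and chromatin, 2 rose. Asf1b, a histone chaperone, had 90.6, 89.7 and 85.7 CPM with PDS, against 71.2, 73.0 and 76.2 CPM in PDS_control (log2 0.27 ± 0.07, adjusted p = 0.0270). Slbp, which binds the stem-loop of histone mRNA, had 70.4, 65.6 and 71.7 CPM with PDS, against 58.2, 56.4 and 60.4 CPM in PDS_control (log2 0.25 ± 0.07, adjusted p = 0.0284). No polymerase or primase gene was called (5 tested, 1 at an unadjusted p under 0.05), nor a gene of the clamp and its loader (5 tested, 2), of Okazaki fragment joining (2 tested, 0) or of the G1/S cyclins and E2F (3 tested, 1).

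**Figure D3:**
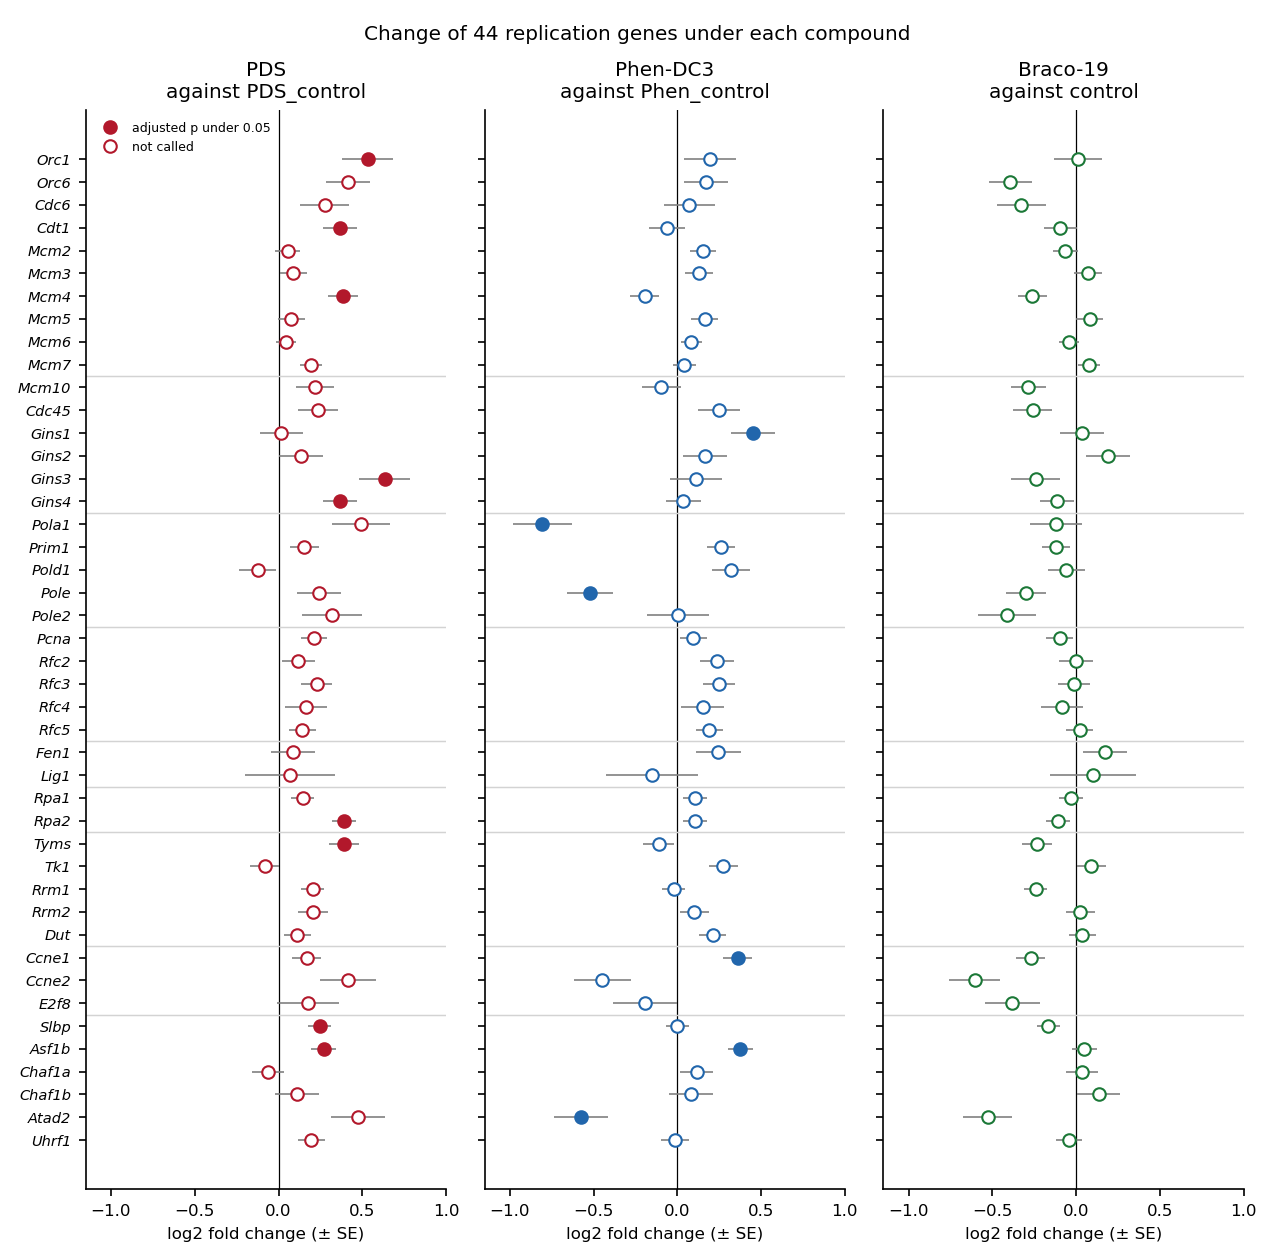
Log2 fold change with its SE for each of the 44 genes under PDS, Phen-DC3 and Braco-19, each against its own controls; filled points are called at an adjusted p under 0.05, and grey lines divide the roles from licensing at the top to histone supply and chromatin at the bottom. With PDS, 41 of the 44 points lie right of 0, and with Braco-19, 28 lie left of 0.

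In lists of other replication, G1/S and mitosis genes, the PDS calls were likewise in 1 direction, where 5.13% of all tested genes rose and 2.96% fell. Of 49 other replication genes tested, 7 rose and 0 fell, among them Ticrr, an origin firing factor (log2 0.73 ± 0.17, adjusted p = 0.0089) and Mcm8, an MCM relative (0.68 ± 0.18, adjusted p = 0.0200). Of 32 G1/S regulators, 5 rose and 0 fell, among them Ccnd1, cyclin D1 (0.63 ± 0.07), Ccna2, cyclin A2 (0.45 ± 0.07), and Cdkn1a, the inhibitor p21 (0.34 ± 0.07). Of 24 mitosis genes, 22 rose and 0 fell, with a median log2 fold change of 0.56. Nusap1, a spindle protein, had the largest value of those taken as examples, 0.77 ± 0.10.

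Leaving out any 1 library lowered the number of PDS calls. Without PDS_control replicate 1, 2 or 3, 6, 1 and 8 of the 44 were called higher, the 1 being Rpa2, and without PDS replicate 1, 2 or 3, 5, 4 and 2 were called. The higher calls over all tested genes also fell, from 728 to 570, 425 and 479 without PDS_control replicates 1, 2 and 3. Without PDS replicates 1, 2 and 3 they were 506, 442 and 375. The median log2 fold change of the 44 stayed between 0.18 and 0.20 in these fits. Rpa2 kept its call in all 14 alternatives tried, with adjusted p from 2.4e-05 to 0.0177. The other 8 lost theirs in at least 2.

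Phen-DC3 was compared with Phen_control next. Here 3 of the 44 rose and 3 fell, where 2.19% of all tested genes rose and 5.82% fell. The median log2 fold change was 0.10, against -0.01 over all tested genes, and 32 values were positive. Phen-DC3 libraries lay above all Phen_control libraries for 10 genes and below for 3 (Pola1, Pole and Ccne2), where 10.1% and 11.9% of all tested genes did so.

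The genes that fell were polymerase subunits and a chromatin factor. Pola1, the catalytic subunit of DNA polymerase alpha, had 6.91, 6.15 and 9.62 CPM in Phen-DC3 libraries, against 13.5, 12.6 and 13.7 CPM in Phen_control libraries, and fell to 0.571 of its control level (log2 -0.81 ± 0.18, adjusted p = 0.0159). Pole, the catalytic subunit of DNA polymerase epsilon, had 10.6, 10.2 and 9.74 CPM with Phen-DC3, against 18.5, 14.4 and 11.0 CPM in Phen_control (log2 -0.52 ± 0.14, adjusted p = 0.0291). Atad2, a bromodomain protein linked to replication, had 14.1, 13.8 and 21.0 CPM with Phen-DC3, against 26.5, 26.8 and 19.7 CPM in Phen_control (log2 -0.57 ± 0.16, adjusted p = 0.0414). Pola1 was low in every Phen-DC3 library, Pole came close to its controls through Phen_control replicate 3, and the groups overlapped for Atad2.

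The genes that rose were Asf1b, Ccne1 and Gins1. Asf1b had 79.1, 71.3 and 67.4 CPM with Phen-DC3, against 51.0, 56.5 and 60.2 CPM in Phen_control (log2 0.38 ± 0.08, adjusted p = 0.0115). Ccne1, cyclin E1, had 29.3, 31.2 and 26.6 CPM with Phen-DC3, against 23.3, 20.0 and 24.5 CPM in Phen_control (log2 0.36 ± 0.09, adjusted p = 0.0213). Gins1 had 24.9, 23.4 and 25.5 CPM with Phen-DC3, against 14.1, 18.4 and 21.4 CPM in Phen_control (log2 0.45 ± 0.13, adjusted p = 0.0398). The groups did not overlap in these 3 genes. Cyclin E2 had the opposite sign to cyclin E1: Ccne2 had 10.3, 8.90 and 11.8 CPM with Phen-DC3, against 15.7, 14.4 and 12.2 CPM in Phen_control, and was not called (log2 -0.45, adjusted p = 0.0963).

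The genes that fell are long and those that rose are short: Pole has 7103, Pola1 5322 and Atad2 4122 bases in the table, against 1954 for Ccne1, 1586 for Asf1b and 1077 for Gins1. Across the 44 genes Spearman's rho between log2 fold change and gene length was -0.369, and across all tested genes -0.443; genes are not independent. Genes over 5000 bases took 7.99% ± 0.52 of counts with Phen-DC3, against 9.99% ± 0.74 in Phen_control. With an offset for gene length, none of the 44 was called, where 21 of all 14184 tested genes were called higher and 28 lower. Pola1 then had a log2 fold change of -0.59 (adjusted p = 0.104), Pole -0.17 (adjusted p = 0.382) and Asf1b 0.27 (adjusted p = 0.0591). None was called either without Phen_control replicate 1 or 2, or without Phen-DC3 replicate 1 or 2. Those fits called 0 or 1 of all tested genes higher and 0 to 21 lower. Without Phen_control replicate 3, 9 rose and 4 fell, where 1464 and 1872 of all 14184 tested genes did. Without Phen-DC3 replicate 3, 7 rose and 4 fell, where 1076 and 1609 of all tested genes did. The calls thus grew over all genes, not only in this set.

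Of 49 other replication genes, 0 rose with Phen-DC3 and 2 fell, the telomere and replication timing factor Rif1 (log2 -1.10 ± 0.21, adjusted p = 0.0112) and Rfc1, the large clamp loader subunit (-0.31 ± 0.09, adjusted p = 0.0466). Of 32 G1/S regulators 1 rose, Cdkn1a (0.28 ± 0.07), and 0 fell. Of 24 mitosis genes 1 rose and 4 fell, Mki67 among them at -0.85 ± 0.18. Over all tested genes, 2.19% rose and 5.82% fell.

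With Braco-19, none of the 44 genes was called against control, where 0.169% of all tested genes were called higher and 0.106% lower. At an unadjusted p under 0.05, 0 were higher and 14 lower in edgeR, where 11.4% and 7.39% of all tested genes were. DESeq2 called 0 higher and 3 lower, where 2.54% and 1.72% of the genes it tested were. The median log2 fold change was -0.07, against 0.00 over all tested genes, with 28 values negative and 16 positive. Braco-19 libraries lay below all control libraries for 14 genes and above for 1, Mcm7, where 14.4% and 13.7% of all tested genes did so.

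The lowest values were those of cyclin E2 and Atad2. Ccne2 had 36.1, 30.6 and 30.1 CPM in Braco-19 libraries, against 45.6, 48.7 and 52.9 CPM in control libraries (log2 -0.60 ± 0.15, adjusted p = 0.100). Atad2 had 90.0, 77.1 and 83.7 CPM with Braco-19, against 126, 117 and 119 CPM in control (log2 -0.53 ± 0.15, adjusted p = 0.124). Mcm4 had 136, 124 and 128 CPM with Braco-19, against 149, 156 and 160 CPM in control (log2 -0.26 ± 0.09, adjusted p = 0.151). In these 3 genes the groups did not overlap, but the differences failed the adjustment over all genes. E2f8, an E2F repressor, and Orc6 had log2 fold changes of -0.38 ± 0.16 and -0.39 ± 0.13. Fitted on the 6 Braco-19 and control libraries alone, 6 of the 44 were called lower, where 2.3% of all tested genes were. Of the 49 other replication genes, the 32 G1/S regulators and the 24 mitosis genes, 0 were called, while 13, 15 and 11 of them had an unadjusted p under 0.05 in either direction, where 18.8% of all tested genes did.

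**Figure D4:**
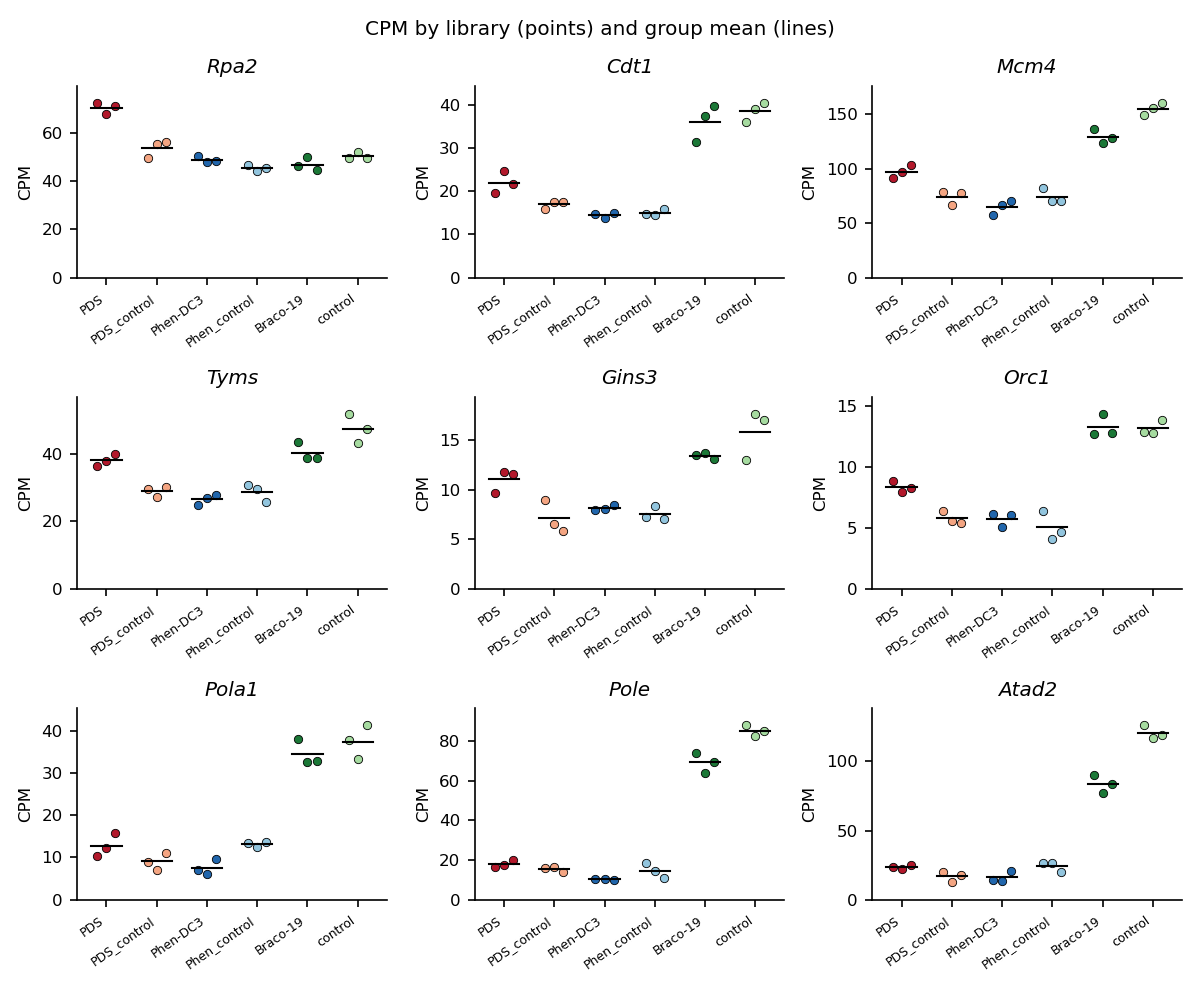
CPM of 9 replication genes in each library (points) with the group mean (line); each vertical axis starts at 0. Rpa2 is highest in the 3 PDS libraries (67.8 to 72.4 CPM), and Pola1, Pole and Atad2 lie well above the other 12 libraries in all Braco-19 and control libraries.

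Whether the compounds differed was tested as a difference between their log2 fold changes in the same model. The doses are not given, so matched doses cannot be assumed, and 24 hours was common to all. The PDS effect was larger than the Braco-19 effect for 14 genes and smaller for 0, where 7.28% and 6.75% of all tested genes were called; at an unadjusted p under 0.05 these were 24 and 0, where 16.5% and 15.3% of all tested genes were, and DESeq2 called 19 and 0, where 11.3% and 10.9% of the genes it tested were. For Mcm4 the difference was 0.65 ± 0.12 on the log2 scale (adjusted p = 0.0027), with log2 fold changes of 0.39 under PDS and -0.26 under Braco-19. For Ccne2 it was 1.02 ± 0.23 (adjusted p = 0.0079), from 0.42 under PDS and -0.60 under Braco-19. For Rrm1 it was 0.45 ± 0.10 (adjusted p = 0.0066), from 0.20 and -0.24. Neither compound alone gave a call for Ccne2 or Rrm1. In all, 27 genes had a positive value under PDS and a negative one under Braco-19. Without PDS replicate 2 or without control replicate 3, 9 genes were called.

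The PDS effect was larger than the Phen-DC3 effect for 7 genes and smaller for 1, where 12.4% and 7.76% of all tested genes were called. The largest difference was that of Pola1, at 1.30 ± 0.25 (adjusted p = 0.0027), with log2 fold changes of 0.49 under PDS and -0.81 under Phen-DC3. Atad2 differed by 1.05 ± 0.23 (adjusted p = 0.00655), Mcm4 by 0.58 ± 0.12 (adjusted p = 0.00475) and Tyms by 0.50 ± 0.13 (adjusted p = 0.0121). Tk1 was the gene with the smaller value under PDS (difference -0.36 ± 0.12, adjusted p = 0.0427). The count of such genes was 0 without any 1 of the PDS libraries, of PDS_control replicates 2 and 3, or of replicates 1 and 2 of Phen-DC3 and Phen_control, and it was 2 without Phen-DC3 replicate 3 and 3 without Phen_control replicate 3. In Pole, whose difference was 0.77, the call was lost with the offset for gene length (adjusted p = 0.143).

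Between Phen-DC3 and Braco-19 the effects of none of the 44 genes were called different, where 0.0141% of all tested genes were called higher and 0.0353% lower. At an unadjusted p under 0.05, 8 were higher under Phen-DC3 and 1 lower, where 3.31% and 6.16% of all tested genes were, and DESeq2 called 1 higher and 0 lower, where 0.18% and 0.274% of the genes it tested were. Without Phen-DC3 replicate 3 or Phen_control replicate 3, 1 was called higher. The differences ranged from -0.69 for Pola1 (95% confidence interval -1.20 to -0.17) to 0.63 for Ccne1 (0.36 to 0.90), so these data do not show that the compounds act alike.

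The control groups were also set against each other, with no compound on either side. PDS_control exceeded Phen_control for 17 genes and was lower for 0, where 1.59% of all tested genes were higher and 4.5% lower. At an unadjusted p under 0.05, 26 were higher and 2 lower, where 9.72% and 15.5% of all tested genes were, and DESeq2 called 22 and 2, where 5.02% and 8.97% of the genes it tested were. The median log2 difference was 0.26, against -0.01 over all tested genes, and PDS_control libraries lay above all Phen_control libraries for 26 genes and below for 1, Pola1, where 10.6% and 13.1% of all tested genes did so. The comparison of PDS with PDS_control, whose median was 0.20, uses the same PDS_control libraries.

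The MCM ring made up 5 of the 17. Mcm5 had 106, 119 and 98.4 CPM in PDS_control libraries, against 76.2, 72.2 and 84.0 CPM in Phen_control libraries (log2 0.48 ± 0.08, adjusted p = 0.0128). Mcm6 had 127, 127 and 131 CPM in PDS_control, against 101, 89.6 and 103 CPM in Phen_control (log2 0.39 ± 0.06, adjusted p = 0.0088). Mcm4 did not differ in this comparison beyond its spread (log2 -0.0016 ± 0.09), while it was the only ring subunit called with PDS. None of the 17 calls held in every alternative: 1 was left without PDS_control replicate 2, 10 without PDS_control replicate 3, 4 and 0 without Phen_control replicates 1 and 2, and 0 when only these 6 libraries were fitted. Over all tested genes, the higher calls in these fits were 6, 43, 16, 2 and 2 in the same order, against 226 in the main fit. The calls were thus lost over all genes, not only in this set. Without PDS_control replicate 1 or Phen_control replicate 3, 1 gene was called lower. Phen_control had the widest spread between replicates, with squared differences per gene of 12.8 to 34.0 times counting error, against 4.12 to 16.0 in the other groups.

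Against control, the group set beside Braco-19, both other control groups differed widely. PDS_control was higher for 8 of the 44 and lower for 26, where 35.6% and 37.7% of all tested genes were called, and Phen_control was higher for 1, Rfc2, and lower for 32, where 34.6% and 34.9% were. The median log2 difference of the 44 was -0.34 for PDS_control and -0.68 for Phen_control, against -0.02 and 0.00 over all tested genes. PDS_control libraries lay above all control libraries for 8 genes and below for 28, where 37.4% and 39.6% of all tested genes did so, and Phen_control libraries lay above for 1 and below for 33, where 34.8% and 36.4% did so. These comparisons share the control libraries. Without Phen_control replicate 1, Phen_control was higher than control for 2.

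For PDS_control, Atad2 differed most, and for Phen_control, Pole did. Atad2 had 20.1, 12.8 and 17.9 CPM in PDS_control, 26.5, 26.8 and 19.7 CPM in Phen_control, and 126, 117 and 119 CPM in control. Its log2 difference was -2.83 ± 0.16 for PDS_control and -2.31 ± 0.16 for Phen_control. Pole had 15.8, 16.3 and 13.7 CPM in PDS_control and 18.5, 14.4 and 11.0 CPM in Phen_control, against 88.1, 82.7 and 85.3 CPM in control (log2 -2.48 ± 0.13 and -2.54 ± 0.13). E2f8 had 7.38, 5.30 and 5.87 CPM in PDS_control and 5.86, 5.89 and 3.62 CPM in Phen_control, against 24.5, 29.8 and 33.0 CPM in control (log2 -2.23 ± 0.18 and -2.51 ± 0.18). The ranges of these 3 genes in control lay far above those of both other control groups. Over the 6 group means, the ratio of the highest to the lowest was 8.38 for Pole, 7.39 for Atad2 and 6.50 for E2f8, each with control highest and Phen-DC3 lowest. At the other end Rfc4 and Rpa1 varied by ratios of 1.24 and 1.27.

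Gene length and some markers of matrix cells moved with this difference. Across the 44 genes the log2 difference correlated with length at rho -0.444 for PDS_control and -0.496 for Phen_control (across all tested genes -0.496 and -0.474; genes are not independent). With the length offset, Pole had a log2 difference of -1.05 for PDS_control and -1.35 for Phen_control, and Atad2 -2.24 and -1.83, while E2f8 had -2.21 and -2.49. Of the called genes, 8 changed sign under the offset for PDS_control and 2 for Phen_control. For PDS_control, Cdc45 and Dut were then called in the opposite direction. The summed level of 7 fibroblast and annulus markers was 2789 to 3161 CPM in PDS_control and 3159 to 3234 CPM in Phen_control, against 5806 to 6961 CPM in control, and most of that gap was Col1a1, with means of 1356 CPM in PDS_control and 1413 CPM in Phen_control, against 4855 CPM in control. The list did not move as 1: Thy1 averaged 935 CPM in PDS_control and 798 CPM in Phen_control, against 560 CPM in control, Dcn 237 and 326 CPM, against 229 CPM, and Lum 173 and 281 CPM, against 186 CPM. Their part in the result was not tested.

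**Figure D5:**
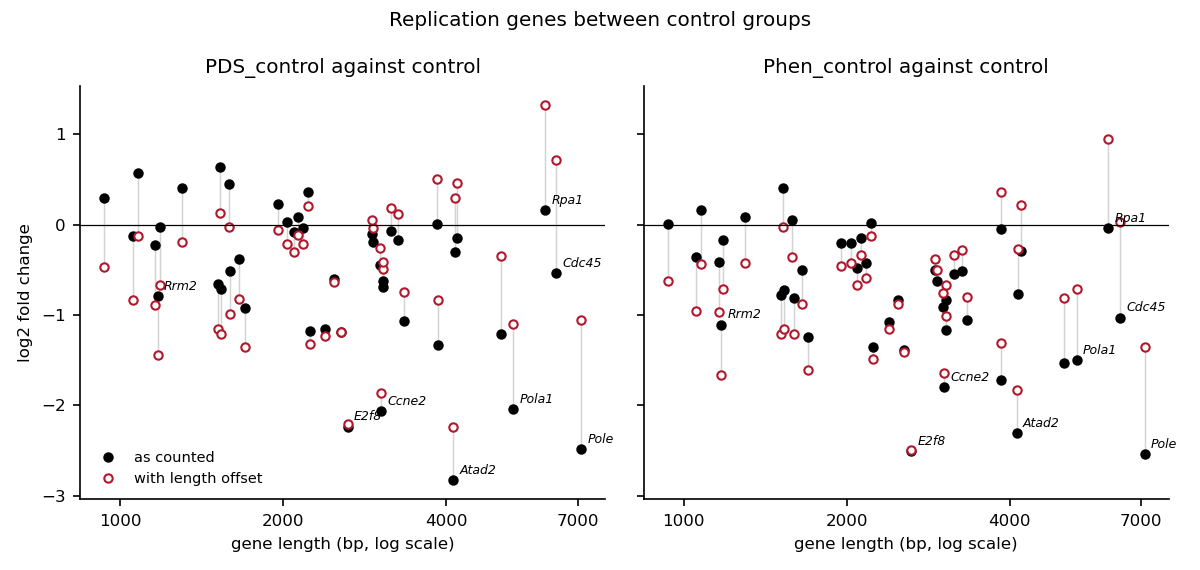
Log2 difference of each of the 44 genes between control groups, against gene length on a log scale, as counted (filled) and with the offset for gene length (open, joined by a line). In PDS_control against control, Pole is at -2.48 as counted and at -1.05 with the offset, and E2f8 at -2.23 and -2.21.

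Among the context lists, PDS_control was lower than control for 32 of 49 other replication genes, 21 of 32 G1/S regulators and 21 of 24 mitosis genes, and higher for 8, 5 and 1. Phen_control was lower for 33, 21 and 20 of them and higher for 9, 6 and 0. Over all tested genes, 37.7% were lower and 35.6% higher for PDS_control, and 34.9% lower and 34.6% higher for Phen_control. Of the 44 replication genes, control had the highest group mean for 21, PDS for 12, Braco-19 for 9, and PDS_control and Phen-DC3 for 1 each.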

How the data were processed

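RNA of 18 libraries was sequenced, and the authors deposited raw counts per gene, whole numbers with no normalisation, for 33898 genes. The submitters' processing notes name CASAVA, HISAT2 and featureCounts 1.5.0-p3; the genome build of the table and the strand setting of the counting were not given in the sources used here. Counts were analysed with edgeR 4.0.16 in R 4.3.3: filterByExpr kept 14184 genes, library sizes were TMM-scaled, and 1 robust quasi-likelihood model with a mean for each of the 6 groups (12 residual degrees of freedom) gave 9 comparisons, each adjusted by the Benjamini-Hochberg method over all genes tested, with a threshold of 0.05. Standard errors come from the F statistics, CPM are given with SD over 3 libraries, and the shared spread can be too small for Phen_control. The genes, the lists and the rules were chosen with earlier results of these data known. Replication genes are named by role, and from each context list the genes with the smallest p. Alternatives were RLE and upper-quartile scaling, no filter on low counts, a gene-length offset (lowess, span 0.3), a replicate block, the compared libraries alone, DESeq2 1.42.0, and leaving out each library. Promoters come from RefSeq (GRCr8).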

Additional observations from a re-analysis of the deposited data

Results flagged for a closer look

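For 22 results the effects of 2 compounds differed by the test of the difference itself, a contrast of log2 fold changes in the edgeR model with the Benjamini-Hochberg adjusted p under 0.05. In the difference of the PDS effect minus the Phen-DC3 effect, Pola1 had 1.30, Atad2 1.05, Ccne2 0.86, Pole 0.77, Mcm4 0.58, Tyms 0.50, Cdt1 0.43 and Tk1 -0.36 on the log2 scale. Over all tested genes, 12.4% were called higher and 7.76% lower in this difference, so 7 higher and 1 lower of the 44 do not set these genes apart. Of these 8, Pola1, Atad2 and Tyms kept their call in all 20 alternatives, and Cdt1 lost it in 17. In the difference of the PDS effect minus the Braco-19 effect, Ccne2 had 1.02, Atad2 1.00, Gins3 0.88, Orc6 0.81, Mcm4 0.65, Tyms 0.63, Pole 0.54, Mcm10 0.50, Rpa2 0.50, Gins4 0.48, Cdt1 0.46, Rrm1 0.45, Ccne1 0.44 and Slbp 0.41. All 14 were higher, where 7.28% of all tested genes were called higher and 6.75% lower. Of these 14, Mcm4, Tyms, Rpa2, Rrm1, Ccne2, Atad2, Orc6 and Slbp kept their call in all 20 alternatives. Each compound was set against its own control group, and the control groups differ from each other, so a difference between compounds and one between control groups cannot be told apart.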

How the results depend on the processing

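Of the calls made, 1 of 9 for PDS, 0 of 6 for Phen-DC3 and 0 of 17 for PDS_control against Phen_control held in every alternative run. So did 21 of 34 for PDS_control against control and 27 of 33 for Phen_control against control. For the differences from the PDS effect these were 3 of 8 (Phen-DC3) and 8 of 14 (Braco-19). Without Phen_control replicate 2, 0 of all tested genes were called for Phen-DC3, so no gene could keep that call. For PDS_control against Phen_control, 2 were then called higher and 1 lower, so few genes could keep theirs. With the gene-length offset, Phen-DC3 had 0 higher and 0 lower calls, where 21 and 28 of all tested genes were called. Phen_control against control had 2 higher under the offset, where 4498 of all tested genes were. For PDS_control against control, signs turned under that offset for Mcm2 (0.12), Cdc45 (0.72), Gins1 (-0.13), Pold1 (0.29), Rfc3 (-0.19), Dut (-0.46), Ccne1 (-0.059) and Asf1b (-0.026). Cdc45 and Dut were then called in the opposite direction, as their adjusted p was at most 0.0057 and 0.0211 in all 14 alternatives. For Phen_control against control, signs turned for Cdc45 (0.026) and Rfc2 (-0.021). The cause was not tested. Without the low-count filter PDS had 4 higher calls, where 534 of all 21605 genes then tested were called higher. With the gene-length offset PDS had 13 higher and 0 lower, where 734 and 505 of all 14184 tested genes were called. On the compared libraries alone it also had 13 higher and 0 lower, where 972 and 1058 were. The PDS minus Phen-DC3 difference had 2 lower calls under RLE, upper-quartile scaling, no filter and DESeq2. Fitted on the compared libraries alone, Phen-DC3 had 0 higher and 0 lower, Braco-19 6 lower, PDS_control against Phen_control 0 higher and the PDS minus Phen-DC3 difference 0 lower. Over all tested genes these fits gave Phen-DC3 1 higher and 0 lower, Braco-19 326 lower and PDS_control against Phen_control 2 higher. The PDS minus Phen-DC3 difference had 989 lower. DESeq2 gave 6 higher and 4 lower for Phen-DC3, where 836 and 1270 of the 10329 genes it tested were called. It gave 0 higher and 3 lower for Braco-19, and 22 higher and 2 lower for PDS_control against Phen_control. For the Phen-DC3 minus Braco-19 difference it gave 1 higher and 0 lower.

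Deviations from group means of same-numbered libraries of a compound and its controls correlated at -0.25 to 0.07. Those of differently numbered libraries correlated at -0.07 to 0.19. With 3 libraries per group, this check shows no pairing by replicate number but cannot exclude one. With the replicate block, PDS had 3 higher calls, Phen-DC3 0 higher and 0 lower, PDS_control against Phen_control 1 lower, the PDS minus Braco-19 difference 8 higher and the PDS minus Phen-DC3 difference 0 lower. Over all tested genes the block gave 378 higher for PDS, 1 higher and 0 lower for Phen-DC3 and 444 lower for PDS_control against Phen_control. It gave 384 higher for the PDS minus Braco-19 difference and 356 lower for the PDS minus Phen-DC3 difference. With the block and the length offset together, Phen-DC3 again had 0 and 0, the PDS minus Phen-DC3 difference 3 higher and 0 lower, PDS_control against control 5 higher and Phen_control against control 2 higher. PDS had 7 higher in that fit. Over all tested genes it called 462 higher for PDS, and 1 higher and 0 lower for Phen-DC3. Signs then turned for the same genes, with Mcm2 at 0.12, Cdc45 0.72, Gins1 -0.13, Pold1 0.29, Rfc3 -0.19, Dut -0.47, Ccne1 -0.059 and Asf1b -0.026 for PDS_control, and Cdc45 0.024 and Rfc2 -0.021 for Phen_control. For PDS_control, Cdc45 and Dut were again called in the opposite direction.

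Leaving out 1 library at a time gave 1 to 8 higher for PDS; 0 to 9 higher and 0 to 4 lower for Phen-DC3; 0 to 22 higher and 0 to 1 lower for PDS_control against Phen_control; 1 to 2 higher for Phen_control against control. For the PDS minus Phen-DC3 difference it gave 0 to 3 lower, for PDS minus Braco-19 9 to 16 higher, and for Phen-DC3 minus Braco-19 0 to 1 higher. Over all tested genes, the same fits gave Phen-DC3 0 to 1464 higher and 0 to 1872 lower calls. They gave PDS 375 to 570 higher, and PDS_control against Phen_control 2 to 1064 higher and 1 to 1688 lower. Upper-quartile scaling put the median of all genes at 0.09 for PDS_control against control and at 0.11 for Phen_control against control, against -0.02 and 0.00, and that of the 44 genes at -0.23 and -0.56, with 9 higher and 21 lower, and 1 higher and 31 lower. For PDS it gave 575 higher and 527 lower calls over all genes, against 728 and 420. Lig1 had the largest standard error of the 44 in all 9 comparisons. Intervals cover the spread between these libraries only.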
